A study of Homo sapiens with 4 samples.

Results

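The genes described here are GAS5 and 8 members of the SNHG family (SNHG1, SNHG5, SNHG6, SNHG7, SNHG8, SNHG12, SNHG15 and SNHG16). They are long noncoding RNA genes that carry small nucleolar RNAs (snoRNAs) in their introns. They were taken by symbol from the deposited gene table, where all 9 were found once each among 24483 genes, and from both deposited peak lists. The source was PANC-1, an established wild-type human cell line of pancreatic ductal adenocarcinoma, grown in DMEM with 10% fetal bovine serum, penicillin and streptomycin. Cells were given sodium lactate at 30 mM, or water as the vehicle, for 24 h. RNA was then pulled down for 4 h from the lysate with an antibody to NSUN2, which methylates cytosines of RNA to 5-methylcytosine, and the input was set aside beforehand. The 4 libraries were an input and an immunoprecipitate (IP) of vehicle cells and the same pair of lactate cells, with 1 library in each group.

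With 1 library per group no difference below has a replicate check and no test was run. No library made with a control antibody was used here, so enrichment in the IP cannot separate RNA held by NSUN2 from RNA carried along. The recovered library totals lay between 11175432 and 17626197 reads, and genes outside the mitochondrial genome took 31.3% of the input and 30.3% of the IP in vehicle cells, against 20.9% and 13.9% in lactate cells. The mitochondrial ribosomal RNA MT-RNR2 held 41.0%, 68.0%, 55.1% and 83.7% of reads in the same order. FPKM, the fragments of a gene scaled to its length and to all fragments sequenced, moves for nuclear genes with these shares. Of 6 identity markers VIM, KRT18 and KRT8 stood at 237, 116 and 28.9 FPKM in the vehicle input. KRT19, EPCAM and KRT7 were low there, at 3.08, 1.56 and 0.369. Of 10 markers of other cell types 4 were listed, with PTPRC at 0 to 4 reads and COL1A1 highest at 2.18 FPKM in the vehicle IP. In the vehicle input COL1A1 was at 1.89 FPKM, above EPCAM and KRT7. The summed FPKM of the 4 listed markers of other cell types lay between 1.31 and 2.20 in the 4 libraries. Their part in the results was not tested.

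A snoRNA host gene is transcribed as a long precursor. Splicing frees its introns, from which the snoRNAs are trimmed, and the snoRNAs go on to guide methylation or pseudouridylation of ribosomal RNA. The spliced exons remain as a long noncoding RNA. Such RNAs commonly begin with a terminal oligopyrimidine (TOP) tract, the element through which ribosomal protein messages respond to growth signals. Many are bound by ribosomes and removed by nonsense-mediated decay, so the spliced RNA can be scarce while its snoRNAs are abundant. GAS5 was named for its rise in growth-arrested cells, and several SNHG genes are raised in tumours.

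RefSeq start sequences are shown for 7 of the 9 genes, because the TOP tract and the TATA element lie there. For SNHG15 no start sequence was available, and that of SNHG6 was left out and is not in the counts below. Each line gives 40 bases before and 20 bases from the start that the RefSeq table uses (build GRCh38.p14, transcribed strand). Capitals mark the letters TATAA between 50 and 16 bases before the start. They also mark the longest run of C and T within 20 bases on either side of the start, where it has at least 6 letters. Of equal runs the first is marked, and SNHG1 has an unmarked run of equal length, tttttct, after the start. The places are chr1:173869026-173869085 for GAS5, chr11:62855866-62855925 for SNHG1, chr6:85678714-85678773 for SNHG5 and chr9:136728165-136728224 for SNHG7, followed by chr4:118278722-118278781 for SNHG8, chr1:28581854-28581913 for SNHG12 and chr17:76557724-76557783 for SNHG16. SNHG8 and SNHG16 lie on the plus strand and the other 5 on the minus strand.
GAS5: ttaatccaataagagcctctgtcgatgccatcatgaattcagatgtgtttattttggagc
SNHG1: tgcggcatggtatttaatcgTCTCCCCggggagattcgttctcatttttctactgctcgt
SNHG5: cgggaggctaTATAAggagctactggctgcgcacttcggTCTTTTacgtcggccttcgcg
SNHG7: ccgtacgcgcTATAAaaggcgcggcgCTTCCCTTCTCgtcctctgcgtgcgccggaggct
SNHG8: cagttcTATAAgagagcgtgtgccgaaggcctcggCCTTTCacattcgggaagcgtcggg
SNHG12: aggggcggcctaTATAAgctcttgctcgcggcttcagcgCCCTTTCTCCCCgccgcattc
SNHG16: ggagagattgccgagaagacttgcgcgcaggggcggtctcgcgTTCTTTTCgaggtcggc

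The letters TATAA stood in that window in 4 of these 7 genes (SNHG5, SNHG7, SNHG8 and SNHG12), against 4.31% of 35116 RefSeq windows of the same length. On the other strand 0 of the 7 had them, against 2.15% of all windows. A pyrimidine run of at least 6 letters near the start was present in 6 of 7, against 38.8% of all windows. The longest runs were 12 letters in SNHG12 and 11 in SNHG7. Runs before, across or after the start were counted alike, whereas a TOP tract opens the transcript. The marked runs of SNHG1 and SNHG7 lie wholly before the start used, so the count is not one of TOP tracts. GAS5 had a longest run of 4, but the table places its start at 173869045, inside the span of the neighbouring gene ZBTB37, and gives a single start per gene.

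By FPKM as deposited, most of the 9 genes lay below the middle of the detected genes. In the vehicle input their FPKM ran from 0.301 to 4.22 with a median of 1.52, and 7 of 9 reached 1 FPKM. The median of all genes at or above 1 FPKM in that library was 3.34, and SNHG1 was the only member above it. The vehicle IP also had 7 at 1 FPKM, while lactate cells had 5 in the input and 2 in the IP, where the members' median was 0.672. Only SNHG1 and GAS5 reached 1 FPKM in every library, and SNHG7 reached it in none. FPKM divides by the length of the gene model. For SNHG5 and SNHG8 that length was recovered as 12604 and 6614 bases, against RefSeq spans of 1727 and 1062. The levels and places of both genes therefore depend on that model.

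**Figure D1:**
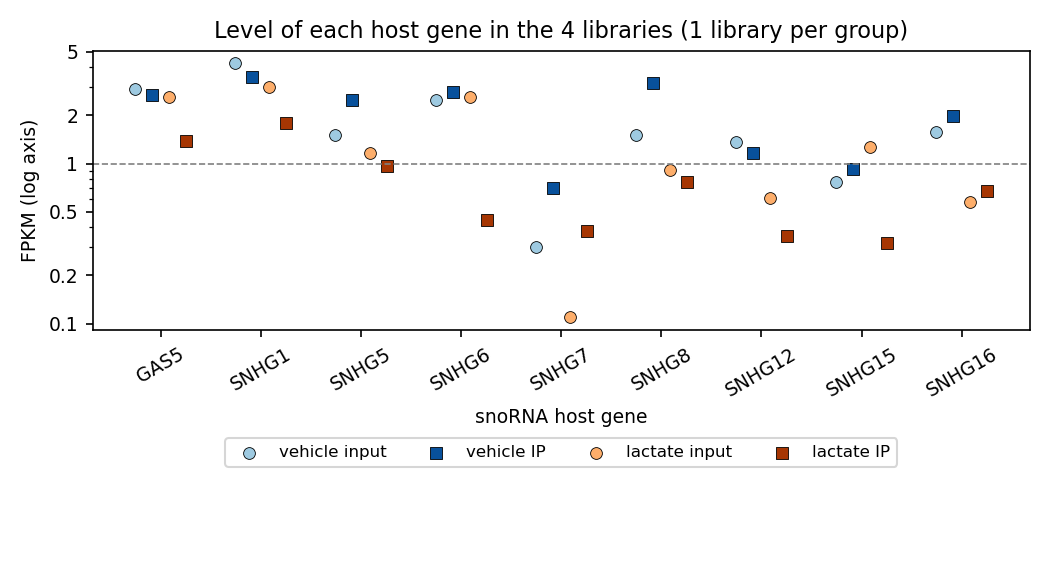
FPKM of the 9 snoRNA host genes (horizontal axis) in the 4 libraries on a log axis, 1 point per library. Circles are inputs, squares are IPs, blue is vehicle and brown is lactate, and the dashed line marks 1 FPKM. In the lactate IP, SNHG1 at 1.80 and GAS5 at 1.39 lie above that line.

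SNHG1, the host of a run of SNORD genes that includes SNORD22 and SNORD25, had the highest FPKM of the 9 in every library. Its values were 4.22 and 3.49 in the input and IP of vehicle cells, and 2.99 and 1.80 in those of lactate cells (296, 189, 133 and 109 reads). GAS5, whose span holds 11 snoRNA genes in RefSeq, had 2.92, 2.68, 2.61 and 1.39 in the same order (127, 90, 72 and 52 reads). For both genes the lactate IP was the lowest library.

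SNHG5, the host of SNORD50A and SNORD50B, had 1.52, 2.50, 1.16 and 0.961 FPKM, in that order again. It held the most reads of the 9 (337, 429, 163 and 184), over a recovered length of 12604 bases. Its RefSeq span is 1727 bases, so the gene model behind the deposited values reaches beyond that span. SNHG8, the host of SNORA24, had 1.52, 3.20, 0.906 and 0.766 (177, 288, 67 and 77 reads) over 6614 bases, against a RefSeq span of 1062. In both genes the vehicle IP was highest and the lactate IP lowest.

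SNHG16, the host of SNORD1A, SNORD1B and SNORD1C, had 1.57, 1.996, 0.573 and 0.672 FPKM (160, 157, 37 and 59 reads), so that both lactate libraries lay below both vehicle libraries. SNHG12 carries 3 SNORA genes and SNORD99, and had 1.36, 1.17, 0.608 and 0.355 (102, 68, 29 and 23 reads). It showed the same split between conditions.

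SNHG15, the host of SNORA9, had 0.763, 0.931, 1.27 and 0.317 (53, 50, 56 and 19 reads), with the lactate input highest and the lactate IP lowest. SNHG7, the host of SNORA17A and SNORA17B, had 0.301, 0.705, 0.110 and 0.377 (26, 47, 6 and 28 reads). It was higher in each IP than in its input, on few reads.

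SNHG6 (chr8:66921690-66925541 in RefSeq), the host of SNORD87, had 2.49, 2.82 and 2.62 FPKM in the vehicle input, vehicle IP and lactate input, and 0.443 in the lactate IP (111, 97, 74 and 17 reads). The first 3 libraries were close to each other and the lactate IP stood far below them. Its span lies inside that of MCMDC2. No source used here gives the strand setting of the gene counts, and the kit does not mark strand, so reads of overlapping genes cannot be told apart. ZBTB37 and GAS5-AS1 overlap part of GAS5, and TRNAU1AP part of SNHG12. DIPK1B overlaps part of SNHG7, which lies inside LOC124900276.

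The order of levels was SNHG1, GAS5, SNHG6, SNHG16, SNHG8, SNHG5, SNHG12, SNHG15 and SNHG7 in the vehicle input. Exact 95% Poisson intervals of neighbours overlapped in 4 of the 8 neighbouring pairs there. SNHG16, SNHG8 and SNHG5 could not be ordered (1.34 to 1.83, 1.30 to 1.76 and 1.36 to 1.69 FPKM). SNHG1 was apart from GAS5 (3.76 to 4.73 against 2.44 to 3.48). In the lactate IP all 8 neighbouring pairs overlapped. These intervals cover counting error only, since each group has 1 library. They do not cover the gene model lengths that FPKM divides by, on which the places of SNHG5 and SNHG8 depend. The kit adds no molecular identifiers, so amplified copies cannot be told from separate molecules and the intervals may be too narrow.

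The inputs compare RNA levels after lactate or vehicle. SNHG15 had the highest ratio of the 9, at 1.67 times its vehicle FPKM after lactate. Its log2 ratio without a pseudocount was 0.74 (95% counting interval 0.17 to 1.31), and SNHG6 at 0.07 (−0.37 to 0.51) was the only other member above 0. SNHG16 was at −1.46 (−2.01 to −0.93), SNHG12 at −1.16 (−1.80 to −0.55) and SNHG8 at −0.74 (−1.17 to −0.33). GAS5 was at −0.16 (−0.60 to 0.27). Ratios of FPKM + 1, which shrink the differences of scarce genes, ran from −0.71 for SNHG16 to 0.37 for SNHG15.

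The median of the 9 was −0.23 on the FPKM + 1 scale, against −0.43 over 6766 genes with at least 1 FPKM in either input and −0.44 over 381 lncRNA genes among them. Relative to the median gene, 7 members were above and 2, SNHG12 and SNHG16, below. With no minimum on FPKM the median of all genes was −0.06, and 2 members were above it. With scaling by median ratios or to equal totals outside mitochondria, 5 members were above 0 and 4 below, so the count of 7 members below 0 belongs to FPKM as deposited. None of the 9 passed a log2 ratio of 1 in either direction, where 1.76% of genes were higher and 6.46% lower. Without a pseudocount SNHG7, SNHG12 and SNHG16 were past −1, where 17.5% of genes were lower. Of the 9, 8 met the minimum of 1 FPKM, and SNHG7 did not. SNHG15 met it through the lactate input only.

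The IP was set against its own input to describe what the NSUN2 IP held. In vehicle cells SNHG8 stood at 1.52 FPKM before the pull-down and 3.20 after it, a log2 ratio of 1.07 without a pseudocount (95% counting interval 0.80 to 1.35). SNHG5 stood at 0.72 (0.51 to 0.93), SNHG7 at 1.23 (0.51 to 1.98) and SNHG16 at 0.34 (0.02 to 0.67). SNHG1 was lower in the IP, at −0.28 (−0.55 to −0.01). The intervals of GAS5 (−0.12), SNHG6 (0.18), SNHG12 (−0.21) and SNHG15 (0.29) reached across 0. The members thus spread on both sides of their input.

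Over all genes the median of the same ratio was 0.62, and 4 members, GAS5, SNHG1, SNHG6 and SNHG12, had intervals wholly below it, while SNHG8 alone lay wholly above. The share of all genes with intervals off the median was not computed, here or in the comparisons that follow. As many genes lie below a median as above it, so such placements describe single members and are not a result about the group. On the FPKM + 1 scale the members' median was 0.13, against 0.44 over 9099 genes and 0.72 over 631 lncRNA genes that met the minimum. The minimum admits a scarce gene when it is high in the IP. Among 1087 lncRNA genes with a mean of at least 0.3 FPKM over the 4 libraries, a bound set after the members' levels were known, the median was 0.32. No member passed a log2 ratio of 1 on that scale, where 27.6% of genes were higher and 15.3% lower. Of the 9, 7 met the minimum. Without a pseudocount SNHG7 and SNHG8 were past 1, where 41.5% of genes were higher. As deposited 6 members were above 0, with median ratios 5 and with equal totals outside mitochondria all 9.

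In lactate cells 7 of the 9 had less FPKM in the IP than in the input, with SNHG6 and SNHG15 lowest. SNHG6 had an input FPKM of 2.62 and an IP FPKM of 0.443, a log2 ratio of −2.56 without a pseudocount (95% counting interval −3.42 to −1.79). SNHG15 had 1.27 and 0.317, at −2.00 (−2.84 to −1.23). GAS5 was at −0.91 (−1.46 to −0.38), SNHG1 at −0.73 (−1.11 to −0.35) and SNHG12 at −0.78 (−1.63 to 0.06). SNHG5 at −0.27, SNHG8 at −0.24 and SNHG16 at 0.23 had intervals across 0. SNHG7 was above 0 at 1.78 (0.48 to 3.34), on 6 input and 28 IP reads.

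**Figure D2:**
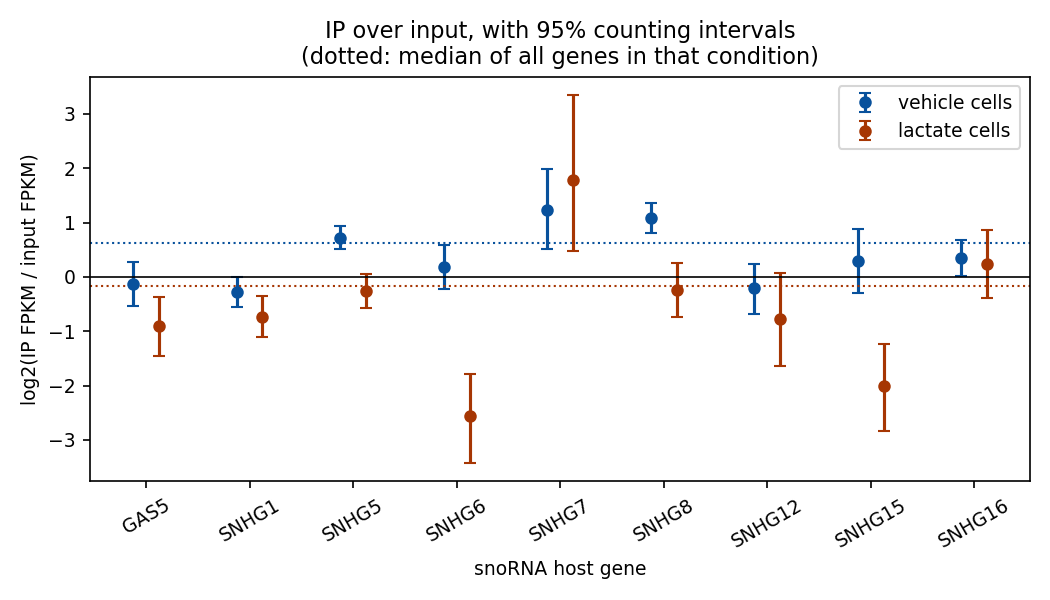
Log2 ratio of IP over input FPKM, without a pseudocount, for the 9 host genes in vehicle (blue) and lactate (brown) cells. Bars are 95% intervals of counting error, and dotted lines are the medians of all genes, 0.62 in vehicle and −0.17 in lactate cells. SNHG6 (−2.56) and SNHG15 (−2.00) in lactate cells lie below every other point.

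The median of all genes was itself −0.17 in lactate cells without a pseudocount. GAS5, SNHG1, SNHG6 and SNHG15 had intervals wholly below it and SNHG7 alone wholly above. On the FPKM + 1 scale the members' median was −0.25, against −0.10 over 7170 genes and 0.46 over 414 lncRNA genes at the minimum (0.11 over the 1087 of mean 0.3 FPKM). A single member, SNHG6 at −1.33, passed −1, and 0 passed 1, where 23.3% of genes were lower and 16% higher. Without a pseudocount SNHG6 and SNHG15 were past −1 and SNHG7 past 1, where 33.7% of genes were lower and 27.6% higher. Of the 9, 5 met the minimum. SNHG5, SNHG6 and SNHG15 met it through the input alone, and a minimum met in this way admits a scarce gene when its ratio is low. With equal totals outside mitochondria 6 members were above 0 and 3 below (GAS5, SNHG6 and SNHG15), and with median ratios 3 were above and 6 below.

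The change in enrichment is the log2 ratio of IP over input after lactate less the one after vehicle. Without a pseudocount it was lowest for SNHG6 at −2.74 (95% counting interval −3.60 to −1.89) and SNHG15 at −2.29 (−3.23 to −1.36). SNHG8 followed at −1.32 (−1.86 to −0.77), then SNHG5 at −0.99 (−1.36 to −0.62), GAS5 at −0.79 (−1.43 to −0.14) and SNHG1 at −0.45 (−0.905 to −0.004). SNHG12 at −0.56, SNHG16 at −0.11 and SNHG7 at 0.55 had intervals across 0. On this scale SNHG6, SNHG8 and SNHG15 were past −1, where 22.0% of genes were lower. The IP was above its input in vehicle and below it in lactate cells for 4 members (SNHG5, SNHG6, SNHG8 and SNHG15) without a pseudocount, and for 14.1% of 8559 genes with reads in all 4 libraries. For SNHG7 the sign rests on the pseudocount, since it was −0.08 on the FPKM + 1 scale.

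The median of all genes on this measure was −0.49, and SNHG5, SNHG6, SNHG8 and SNHG15 had intervals wholly below it. With median ratios their changes were −0.46, −2.22, −0.79 and −1.76, and with equal totals outside mitochondria −0.51, −2.26, −0.83 and −1.81. Under both scalings SNHG7 and SNHG16 were above 0. SNHG1, at −0.45 as deposited, was at 0.07 and 0.03. On the FPKM + 1 scale the members' median was −0.51 against −0.36 over 9445 genes. SNHG6 at −1.46 was the only member past −1 and 0 passed 1, where 9.56% of genes were lower and 3.04% higher. Of the 9 genes 8 met the minimum, and 2.55% of the 9445 genes had a lower value than SNHG6 and 11.9% a lower value than SNHG15. SNHG15 met the minimum through the lactate input only (1.27 FPKM), and a high lactate input lowers this measure. Its rank is therefore no support for a change. Of the 9 members 4 lay above the median gene and 5 below.

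**Figure D3:**
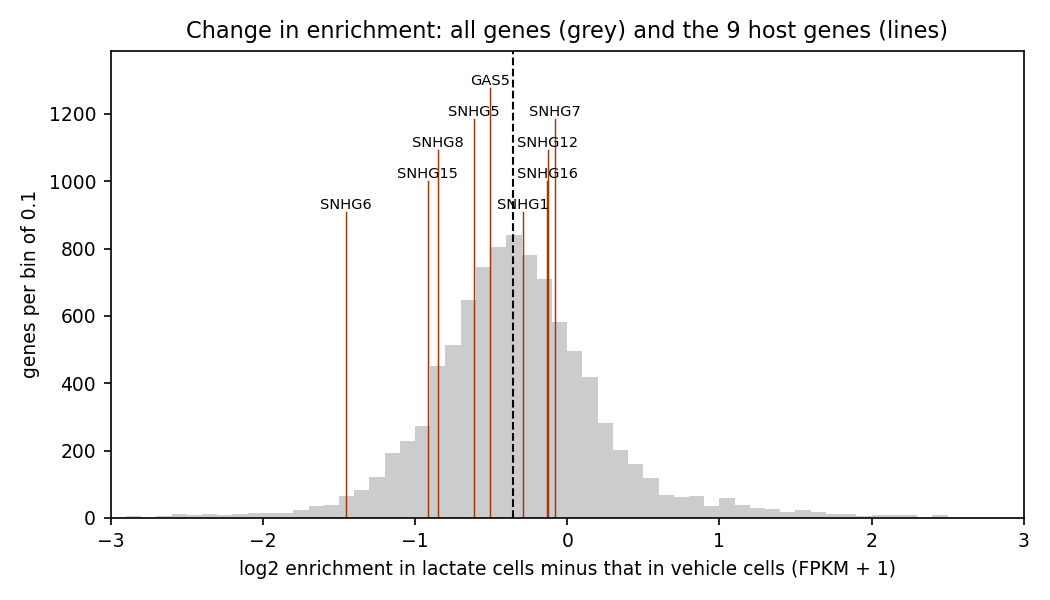
Number of genes (vertical axis) by change in log2 enrichment (lactate less vehicle), on the FPKM + 1 scale, for 9445 genes of which 26 lie outside the plotted range. Brown lines mark the 9 host genes and the dashed line the median gene at −0.36. SNHG6 at −1.46 is in the lower tail and the other 8 lie between −0.92 and −0.08.

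Set directly against each other, the IP libraries gave lower FPKM in lactate cells for all 9 genes as deposited. These ratios share their libraries with the enrichments above. Without a pseudocount they ran from −2.67 for SNHG6 (−3.51 to −1.92) and −2.06 for SNHG8 (−2.44 to −1.69) to −0.90 for SNHG7 (−1.63 to −0.20). The median of all genes was −1.10, and SNHG5, SNHG6, SNHG8 and SNHG16 had intervals wholly below it. On that scale 6 of the 9 passed −1, where 57.5% of genes were lower, and 0 passed 1, where 1.43% were higher. The share of all genes below 0 was not computed. With either of the other scalings 6 members were below 0 and 3 above. Without a pseudocount the members' median was −1.55, below that of all genes. With FPKM + 1 it was −0.15 against 0.07 under median ratios, and −0.17 against 0.11 under equal totals outside mitochondria. As deposited, on the FPKM + 1 scale, the members' median was −0.68 against −0.74 over 8366 genes. SNHG6 and SNHG8 passed −1 and 0 passed 1, where 27.7% of genes were lower and 1.64% higher. Of the 9, 7 met the minimum.

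The summed reads of the 9 genes describe the family independently of the mitochondrial share. They made up 0.0252% of nuclear reads in the vehicle input (95% Wilson interval 0.0239% to 0.0266%) and 0.0343% in the vehicle IP (0.0326% to 0.0361%). In lactate cells the shares were 0.0272% (0.0252% to 0.0294%) in the input and 0.0269% (0.0248% to 0.0292%) in the IP. The vehicle IP thus stood above the other 3 libraries, which overlapped. Without SNHG5, which has most reads, the shares were 0.0191% and 0.0239% in the input and IP of vehicle cells and 0.0203% and 0.0182% in those of lactate cells, and the vehicle IP was again highest. Without both SNHG5 and SNHG8 they were 0.0159% and 0.0169% in vehicle cells and 0.0174% and 0.0145% in lactate cells. The vehicle IP was then no longer highest, and the intervals of all 4 libraries overlapped.

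The authors' peak lists hold regions where an IP library exceeded its own input, with a fold enrichment and a q-value per peak that are the authors'. By the authors' gene symbol, 9 of 95785 peaks of the vehicle list and 3 of 48104 of the lactate list belonged to the host genes. In the vehicle list 5 of the 9 genes had at least 1 peak (SNHG5, SNHG7, SNHG8, SNHG15 and SNHG16), where 84.2% of 9099 genes and 74.5% of 631 lncRNA genes that met the minimum had one. In the lactate list 2 of 9 had a peak (GAS5 and SNHG16), where 71.7% of 7170 genes and 57.2% of 414 lncRNA genes had one. Among hosts that met the same minimum, 3 of 7 had a peak in the vehicle list and 1 of 5 in the lactate list. SNHG1, SNHG6 and SNHG12 had none under their symbols. In the vehicle list 8 of the 9 peaks had a q under 0.05, and in the lactate list 0 of 3.

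The highest fold was at the start of SNHG8, where a vehicle peak at chr4:118278755-118278954 in an exon had 8.02-fold enrichment and a q of 2.00e-17. This fold was higher than that of 93.0% of the vehicle list. Its first 7 bases lie before the RefSeq start at 118278762. The last 100 bases of the RefSeq start window (chr4:118278712-118278811, plus strand, GRCh38.p14) are shown because this peak begins there, with its 57 bases within the window in capitals:
SNHG8: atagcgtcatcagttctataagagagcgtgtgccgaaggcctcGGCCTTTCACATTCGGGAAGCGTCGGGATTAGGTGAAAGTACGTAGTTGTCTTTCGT

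A second SNHG8 peak covered chr4:118279491-118279819, also in an exon, at 2.11-fold and a q of 2.87e-12. The 2 peaks are 536 bases apart, and the gene for SNORA24 lies between them and under neither. SNHG5 also had 2 vehicle peaks in exons. The stronger, chr6:85677795-85678188, was at 4.05-fold with a q of 4.42e-51 and held no snoRNA gene. The weaker, chr6:85677129-85677381, was at 1.20-fold with a q of 0.0101 and covered all 75 bases of SNORD50A. Its fold was among the lowest of the list, with 0.0292% of peaks below it.

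SNHG7 had a vehicle exon peak at chr9:136725250-136725590, 4.34-fold with a q of 3.01e-05. SNHG15 had one at chr7:44983766-44984111, 3.41-fold with a q of 0.0177. SNHG16 had one at chr17:76563212-76563478, 2.54-fold with a q of 4.64e-09. None of these 3 touched a snoRNA gene, and the SNHG7 peak also lies inside LOC124900276. GAS5 had no vehicle peak. Its lactate peak, chr1:173865671-173865870, was at 2.32-fold with a q of 1 and shared 16 bases with SNORD78.

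**Figure D4:**
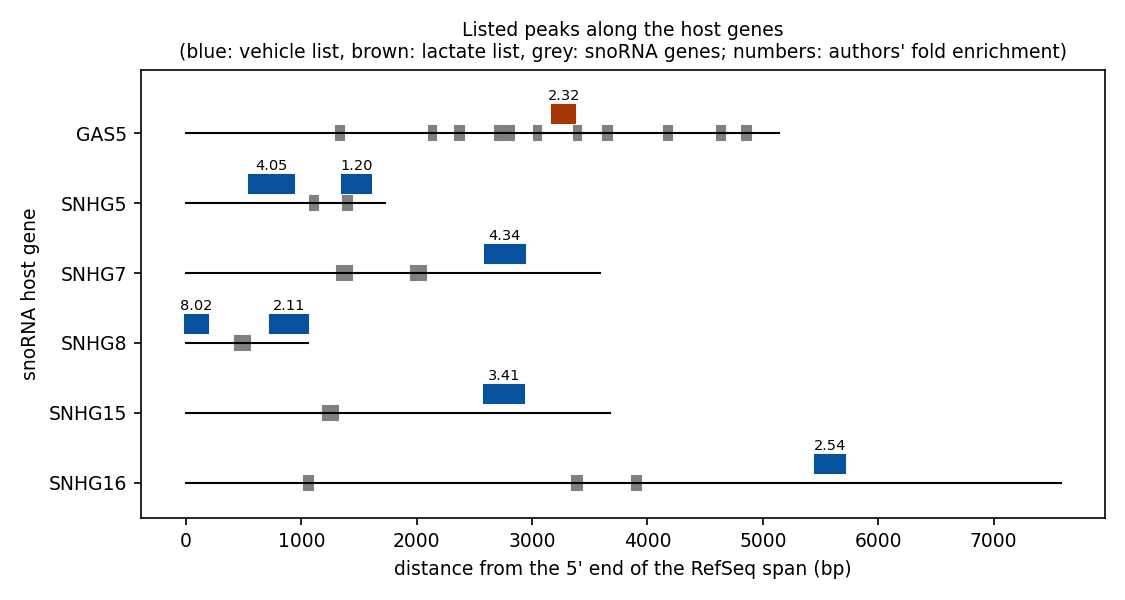
Peaks listed under a host's own symbol and inside its RefSeq span, for the 6 host genes that have one, drawn by distance from the 5′ end of the span in bases. Blue boxes are vehicle peaks, the brown box a lactate peak, grey boxes snoRNA genes, and numbers the authors' fold enrichment. The SNHG8 peak of 8.02-fold lies at the start of the gene, and of the vehicle peaks drawn only the 1.20-fold peak of SNHG5 covers a snoRNA gene.

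The other 4 peaks under the symbol SNHG16 lay in introns of a long Ensembl transcript, outside the RefSeq span of SNHG16. Those at chr17:76584130-76584420 in the vehicle list (4.85-fold, q 0.000218) and chr17:76584067-76584266 in the lactate list (2.73-fold, q 0.979) overlapped by 137 bases. They were the only overlap between the lists, 11.1% of the 9 vehicle and 33.3% of the 3 lactate peaks. Both lie inside the span of ST6GALNAC2, a sialyltransferase gene, as does a further lactate peak at chr17:76583739-76583938 (2.21-fold, q 1). The last was a vehicle peak at chr17:76655662-76655861 (3.03-fold, q 0.140). Assigned by position instead, the vehicle list gave 9 peaks, of which 7 were the same. The other 2 were a 1.46-fold peak at the end of SNHG16 that has no symbol, and a 1.75-fold peak in SNHG12 under the symbol of SNORD99, 79 of whose 200 bases lie in that snoRNA gene. The 1.46-fold peak is annotated to a 3′ untranslated region on the minus strand, opposite to SNHG16, and overlaps ST6GALNAC2. The lactate list gave 1, that of GAS5.

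The authors' comparison of the IP libraries gives M, the log2 ratio of normalized read density in lactate over vehicle, at each peak. Its median over 116484 peaks was −0.50, and 38.6% of them had an M of at most −1. At the host genes M was lowest for SNHG8 at −1.25, from a density of 80.4 in the vehicle to 33.8 in the lactate IP. Both SNHG8 peaks carry the same values, so they are 1 measurement. The SNHG16 exon peak was at −0.86, SNHG15 at −0.55, and the SNHG5 peaks at −0.44 and −0.43 (densities of 354 and 348 in vehicle, 261 and 258 in lactate). SNHG7 was at 0.06, and the GAS5 peak at 0.88 with 8.71 and 16.1. Of 9 distinct densities at peaks under the hosts' symbols 5 were below 0, with a median of −0.43, and 3 lay below the median of all peaks. They include SNHG16 intron peaks outside its RefSeq span, at 0.33 (inside ST6GALNAC2) and 0.71. The share of all peaks below 0 was not computed.

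The snoRNAs themselves were nearly unmeasured in these libraries. RefSeq places 34 snoRNA genes inside the 9 hosts and 2 were in the gene table by symbol. SNORD27 of SNHG1 had 1 read, in the lactate input. SNORD99 of SNHG12 had 1 and 6 reads in the input and IP of vehicle cells, and 0 and 1 in those of lactate cells. No ratio is given on such counts.

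Other lncRNA hosts of snoRNAs included some with high IP values. Of 22 listed, 19 were in the table and 9 met the minimum in vehicle cells, of which 4 passed a log2 enrichment of 1 and 0 passed −1, with a median of 0.17 against 0.44 for all genes. The 4 were SNHG19 (2.10), SNHG25 (1.76), SNHG9 (1.36) and MEG8 (1.14), where 27.6% of all genes were higher. SNHG19 and SNHG25 were on few reads in vehicle cells, at 47 and 23 in the input and 183 and 71 in the IP. MEG8 met the minimum only through the IP, at an input FPKM of 0.272 and an IP FPKM of 1.81. SNHG9 was the most abundant, at 20.6 (input) and 54.4 (IP) FPKM in vehicle cells, and 12.1 and 26.9 in lactate cells. The other 5 were EPB41L4A-AS1 (0.17), ZFAS1 (0.02), SNHG30 (−0.65), SNHG3 (−0.68) and SNHG4 (−0.85). In lactate cells 2 of 8 passed 1, SNHG25 at 1.61 and SNHG9 at 1.09, and SNHG4 at −1.13 passed −1, where 16% of all genes were higher and 23.3% lower. In the inputs 0 of 8 passed 2-fold, where 1.76% of all genes were higher and 6.46% lower. For the change in enrichment SNHG19 at −1.13 was the only one of 9 past −1, and 0 passed 1. Of all genes 9.56% were lower and 3.04% higher on that measure.

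Of protein-coding genes that host snoRNAs, all 38 listed were in the table. In vehicle cells 9 of 37 passed 1 and 6 passed −1, with a median of 0.23, against 27.6% higher, 15.3% lower and a median of 0.44 over all genes. In lactate cells 4 of 34 passed 1 and 9 passed −1, with a median of −0.39, against 16% higher, 23.3% lower and a median of −0.10. NOP56, a core protein of box C/D snoRNPs, was highest in both conditions (2.19 and 1.60), followed in vehicle cells by DKC1 (2.10), the pseudouridine synthase of box H/ACA snoRNPs, and in lactate cells by RPSA (1.37). TPT1 (−3.96 and −4.47) and the translation factor gene EIF4A2 (−3.68 and −3.70) were lowest. In the inputs 0 of 33 passed 1 and 2 passed −1, where 1.76% of all genes were higher and 6.46% lower. For the change in enrichment the median was −0.51, against −0.36 over all genes. There 1 of 37 passed −1 and 0 passed 1, where 9.56% of all genes were lower and 3.04% higher.

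Of messages with a TOP tract outside the ribosomal proteins, 16 of 17 listed were in the table and 15 met the minimum. In vehicle cells 3 of 15 passed 1 and 5 passed −1, with a median of −0.51, where all genes had 27.6% higher, 15.3% lower and a median of 0.44. In lactate cells 1 passed 1 and 8 passed −1, with a median of −1.21, where all genes had 16% higher, 23.3% lower and a median of −0.10. EEF2 (1.91 and 1.15) and RACK1 (1.24 and 0.73) were highest, and TPT1 and the nucleolar protein gene NPM1 (−3.86 and −4.33) lowest. In the inputs 1 of 15 passed −1, where 6.46% of all genes were lower. For the change in enrichment 0 of 15 passed 1 in either direction, where 9.56% of all genes were lower and 3.04% higher.

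Factors of nonsense-mediated decay, the process that removes many host RNAs, had 5 of 13 members past 1 and 1 past −1 in vehicle cells, with a median of 0.33, beside the same all-gene shares of 27.6% and 15.3%. UPF2 (2.21) and SMG5 (1.82) were highest, and MAGOH (−1.38) and MAGOHB (−0.93) lowest. Reads of these last 2 near-identical genes may be split. In lactate cells 2 of 13 passed 1 and 0 passed −1, where 16% of all genes were higher and 23.3% lower. The median there was −0.12, with SMG5 at 1.19, UPF2 at 1.15, MAGOHB at −0.94 and MAGOH at −0.75. In the inputs 0 of 13 passed 2-fold, where 1.76% of all genes were higher and 6.46% lower. For the change in enrichment 3 of 13 passed −1, where 9.56% of all genes did.

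The genes whose pattern was closest to the median of the 9 hosts were sought over the input ratio and both enrichments, from 4 libraries, among 1372 genes with at least 10 FPKM in an input. They were AHCYL1 (Euclidean distance 0.15 in log2 units), PCYOX1 (0.16), SLC50A1 (0.22), KDELR1 (0.23) and B4GALT1 (0.26), against a median distance of 1.77. Distances were taken on the FPKM + 1 scale, which shrinks the ratios of the scarce hosts more than those of genes at 10 FPKM. Without a pseudocount the hosts' medians were −0.50, 0.29 and −0.73, so the nearness belongs to that scale.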

How the data were processed

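Gene values were deposited by the authors in FPKM and used as they stand. The submitters' processing notes name GRCh38, fastp (0.20.1) for reads, HISAT2 (2.1.0), MACS2 (2.2.7.1), HOMER (4.11.1), bedtools (2.29.2) and DiffBind, with no role or order. No source used here names the read counter, its strand setting or the annotation. Libraries were made with the SMART-Seq v4 kit, per the labels' protocols. Each peak list compares 1 IP library with its own input, and gives a fold enrichment (ratio), p-value, q-value and −log10 values, per the file headers. The deposited IP comparison gives log2 ratios (M), a normalized read density (signal) and a P-value, which was not used.

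Whole reads were recovered from the FPKM, which are multiples of 1 read per gene and library. All 72387 values above 0 had a whole-number solution. Any factor shared by a gene's 4 read numbers is lost, so reads and lengths may be understated. Tested on simulated data, the exact reads were returned for 95.9% of 1521 genes with at least 5 reads per library. Reads gave 95% intervals: Clopper-Pearson for ratios, normal on the log scale for the change in enrichment, Wilson for shares and exact Poisson for levels. They cover counting error only, and without molecular identifiers they may be too narrow even for that.

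Log2 ratios used FPKM + 1 unless stated. Medians over all genes used genes with at least 1 FPKM in a compared library, and "passed" means reaching 1 or −1 in log2. Peak starts are 1-based. Sequences and spans are from RefSeq (GRCh38.p14, matched by symbol: 9 spans and 8 start sequences, of which 7 are shown). Named genes were all 9 hosts, every other lncRNA host at the minimum in vehicle cells, and the 2 highest and 2 lowest of each further list in both enrichments. The 5 genes nearest in pattern were also named. Members and lists were chosen with earlier results of these data known. Analyses used Python 3.11.15, numpy 2.4.6, pandas 2.3.3 and scipy 1.17.1.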

Additional observations from a re-analysis of the deposited data

Results flagged for a closer look

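For 4 of the 9 host genes the IP lay above its input in vehicle cells and below it in lactate cells, by FPKM as deposited and without a pseudocount. The lactate minus vehicle difference was −2.74 for SNHG6, −2.29 for SNHG15, −1.32 for SNHG8 and −0.99 for SNHG5. Each rests on 1 library per group, and the difference was not tested. SNHG15 met the minimum of 1 FPKM through the lactate input only, which lowers its difference. The same order was found in 14.1% of 8559 genes that met the minimum with reads in all 4 libraries, and the median gene was at 0.62 in vehicle and −0.17 in lactate cells. None of the 4 had counting intervals off 0 in both conditions: those of SNHG6 and SNHG15 crossed 0 in vehicle cells and those of SNHG5 and SNHG8 in lactate cells. The share of nuclear reads moved with it, in that genes outside the mitochondrial genome held 30.3% of reads in the vehicle IP and 13.9% in the lactate IP. With equal totals for these genes SNHG6 and SNHG15 kept opposite signs in the 2 conditions, whereas SNHG5 and SNHG8 were above their input in both. With median ratios SNHG6 was below its input in both (−0.09 in vehicle and −2.30 in lactate cells) and SNHG8 above it in both (0.81 and 0.02). SNHG15 was then at 0.02 and −1.74, and SNHG5 at 0.46 and −0.01.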

How the results depend on the processing

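Each alternative changed 1 choice, and the values that follow are medians over the 9 host genes in the order lactate input over vehicle input, vehicle enrichment, lactate enrichment, lactate IP over vehicle IP and change in enrichment, against −0.23, 0.13, −0.25, −0.68 and −0.51 in the main setting. With pseudocount 0.1 they were −0.48, 0.26, −0.64, −1.31 and −0.75, and with none (an alternative chosen after seeing the data) −0.50, 0.29, −0.73, −1.55 and −0.79. With pseudocount 5 the vehicle enrichment moved by less than the counting interval of the summed reads and the others were −0.082, −0.067, −0.30 and −0.21. With median ratios the lactate enrichment moved by less than that interval and the others were 0.079, 0.0088, −0.15 and −0.20. With equal totals outside mitochondria they were 0.13, 0.37, 0.091, −0.17 and −0.21. The median was above 0 in the inputs under both scalings and in the lactate enrichment under equal totals, and the median change in enrichment was below 0 under all of these settings. These scalings moved the median of all genes in the inputs from −0.43 to 0.03 and 0.09. Of all genes past 2-fold, the share higher was 21.4%, 64.3%, 40.6%, 5.58% and 24.1% as deposited. Median ratios gave 62.7%, 50.3%, 55.2%, 60.8% and 55.7%, and equal totals gave 65.2%, 76.6%, 76.8%, 63.4% and 56.9%. Other filters on low values cannot move the members' values, but they move the median gene. The members' median less that of all genes went from 0.20 to −0.17 in the inputs, from −0.31 to 0.10 in the vehicle enrichment and from 0.06 to −0.52 between the IPs with no filter, and from −0.15 to 0.50 in the lactate enrichment at 5 FPKM, which no host gene met. Without SNHG6 and SNHG15, chosen after seeing the data, the median change in enrichment was −0.29. The vehicle list's 9 peaks became 8 with a q under 0.05 or a fold of at least 2 and 9 by position. The lactate list's 3 became 0 with a q under 0.05 and 1 by position. The shared peak was counted also at the stricter overlap. The median M of −0.43 became 0.069 relative to all peaks. No paired analysis was possible because each group has a single library. A count of 0 allows 3 reads, or 1.70e-05% of the vehicle input.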
